A study of Mus musculus with 209 samples.

Results

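Neutrophils sorted from the spleen 2 h after an intravenous injection of TNFa were compared with neutrophils of mice given only the carrier, PBS. The comparison holds 8 of the 209 libraries of the series, all those whose titles name neutrophils (GN), the spleen (Sp) and TNFa or PBS in the 2 h experiment: 3 with TNFa and 5 with PBS. Both groups came from C57BL/6J mice aged 5 to 8 weeks. The TNFa group received 5 µg of the cytokine in 120 µL of PBS and the control group 120 µL of PBS, and no other genotype, deletion or treatment is given for either. Cells were sorted in 2 rounds, the last as 1000 cells into a lysis buffer (TCL with 2-mercaptoethanol), and sequenced at ultra-low input by the procedure of the Immunological Genome Project. The tissue label of these libraries names the peritoneal cavity while their titles name the spleen, and here the titles decide. Whether the libraries of a group came from separate mice is not said, so p-values measure the spread between these libraries, which may be technical. Neutrophils of the same experiment sorted 2 h after IL1b or IL6 (3 libraries each, same dose), and Ly6C+ monocytes of the spleen and peritoneal macrophages after TNFa or PBS (3 and 5 libraries each), serve here only to show where the neutrophil response to TNFa differs. The question the design puts is which genes TNFa changes in neutrophils.

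TNFa is a trimeric cytokine that acts through the receptors TNFR1 and TNFR2. TNFR1 assembles a complex of adaptors and ubiquitin ligases that frees NF-kB transcription factors from their IkB inhibitors and activates MAP kinases, and the same receptor can start cell death when survival proteins run short. Neutrophils are short-lived phagocytes that kill microbes with granule proteins and with superoxide from the NADPH oxidase, and TNFa is known to prime them for both, to change their adhesion molecules and to prolong or shorten their lives.

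Total counts per library were 3603640 to 5377893 counts, and the TNFa libraries (4137869 to 5370756) lay within the range of the PBS libraries. Fewer genes had a count with TNFa, 15111 to 17570 against 18563 to 20771, also after thinning all libraries to the smallest total (14671 to 16055 against 17891 to 19563). The 20 most counted genes took 25.5% to 27.9% of the counts with TNFa and 13.5% to 15.7% with PBS. The scaling factors (TMM, trimmed mean of M values, which place libraries on a common scale by the bulk of genes) differed with this, at 0.693 to 0.708 with TNFa and 1.15 to 1.23 with PBS. All levels are counts per 1000000 counts of the TMM-scaled library (CPM), listed for libraries 1, 2 and 3 with TNFa and 1 to 5 with PBS. The cells carried neutrophil markers: 12 of 12 were tested, and their summed level was 44580 to 57900 CPM with PBS and 144000 to 163600 CPM with TNFa. Markers of other cells were far lower. The 10 T cell markers summed to 9.84 to 24.8 CPM over both groups (Trbc2 at 0), the 10 NK cell markers to at most 3.90 CPM (Gzmb at 0), the 9 erythroid ones found in the table to at most 11.7 CPM and the 10 platelet ones to at most 78.0 CPM. The 10 eosinophil and basophil markers summed to 47.6 to 71.2 CPM with PBS and 1.84 to 12.6 CPM with TNFa, and the 10 B cell markers (Fcmr at 0) to 332 to 459 and 106 to 122 CPM. The 10 monocyte markers (Ms4a4c at 0) summed to 784 to 1018 CPM with PBS and 1479 to 1720 CPM with TNFa, and the 11 red pulp macrophage markers to 2494 to 2918 and 726 to 934 CPM. Most of that last sum with PBS was Slc40a1, without which the other 10 summed to 200.2 to 278 CPM with PBS and 390.4 to 453 CPM with TNFa. The part of these other cells in the results below was not tested. In bulk libraries, fewer cells of a type and less RNA per cell cannot be told apart.

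TNFa changed 4197 of 11201 genes tested (37.5%) at an adjusted p below 0.05, of which 2068 rose (18.5%) and 2129 fell (19.0%). The changes were large: 734 genes rose and 976 fell at least 4-fold, and 202 rose and 325 fell at least 16-fold by the fitted value. The libraries of the groups did not overlap for 2103 genes with TNFa above (18.8%) and 2124 with TNFa below (19.0%). Genes that rose were mostly well expressed, with a median of 36.4 CPM with PBS and 100.8 CPM with TNFa, while genes that fell went from a median of 29.6 to 8.64 CPM. In a fit of the 4597 genes averaging at least 20 CPM, chosen after seeing the data, 1482 rose and 1314 fell. Both are larger shares than over all genes tested, and lists of well-expressed genes are to be read beside them. Of the genes tested, 215 had no count in any TNFa library, none of which reached 20 CPM with PBS, and 10 had none in any PBS library. The balance of rises and falls depends on the scaling. The median log2 fold change of all genes tested was -0.21 with TMM factors and -0.32 with upper quartile factors, a shift of -0.11 at which 1848 rose and 2397 fell. Scaling on library totals alone, an alternative chosen after seeing the data, gave a median of -0.99, a shift of -0.78, and 968 genes higher against 4637 lower. Counts of lists below are therefore given with TMM factors, and with library totals alone where the majority of called members changes side.

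**Figure D1:**
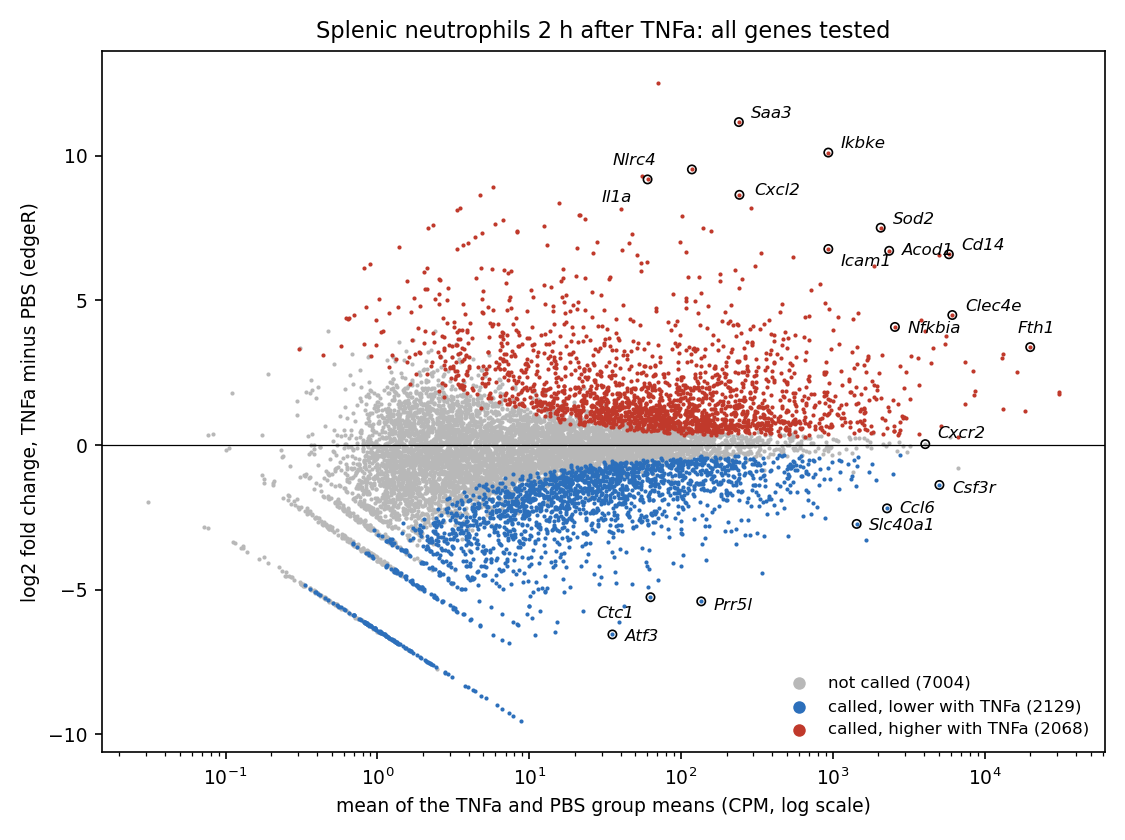
Log2 fold change (TNFa minus PBS, edgeR) against the mean of the group means in CPM (log axis) for the 11201 genes tested, each point a gene, red called higher, blue called lower and grey not called. Saa3, Ikbke and Nlrc4 stand at the top at log2 fold changes of 11.17, 10.11 and 9.53, and the diagonal lines of points at the lower left are genes at or near 0 in the TNFa libraries.

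The largest rises, among called genes whose groups did not overlap and whose higher group averaged at least 20 CPM, began with Saa3, a serum amyloid A protein of the acute phase. Saa3 (chr7:46711998-46715700, minus strand, GRCm38) had 606, 442 and 396 CPM with TNFa and 0.154, 0, 0.19, 0.575 and 0 CPM with PBS. It went from almost no reads to a high level in each TNFa library (log2 fold change 11.17 ± 0.74 (SE), adjusted p = 1.4e-08). Ikbke (chr1:131254343-131279606, minus strand), which encodes the IkB kinase-related kinase IKK-epsilon, had 1579, 2081 and 1946 CPM against 4.62, 0.53, 1.71, 0.383 and 0.459 CPM (10.11 ± 0.46, adjusted p = 2.9e-11). Nlrc4 (chr17:74425438-74459142, minus strand), which forms the inflammasome that senses bacterial flagellin and needle proteins through NAIP partners, had 264, 188 and 255 CPM against 0.462, 0, 0.76, 0.192 and 0 CPM (9.53 ± 0.55, adjusted p = 5.6e-10). In each of these genes the lowest TNFa library lay far above the highest PBS library. The next were Filip1l (9.31), Il1a (9.19), Cxcl2 (8.65), Cst7 (8.36), which encodes cystatin F, an inhibitor of lysosomal proteases, and the receptor adaptor Traf1 (8.19). They were followed by Pnpla1 (8.15), the transcription factor Snai1 (7.95), the adhesion molecule Vcam1 (7.94), Mfsd7a (7.93), the hyaluronan receptor Layn (7.56), the mitochondrial superoxide dismutase Sod2 (7.51) and Smpdl3b (7.49). All had adjusted p of at most 1.3e-05 and none above 5 CPM in any PBS library except Traf1, at up to 7.22 CPM, and Sod2, at 16.5 to 31.2 CPM. The TNFa libraries lay close together in Sod2, at 4027, 4150.0 and 4174 CPM, and further apart in Cst7, at 55.4, 25.2 and 14.1 CPM. Vcam1 is also among the 11 red pulp macrophage markers, of which 4 were tested: Vcam1, Hmox1 and Adgre1 rose and Slc40a1 fell, and the other 7 averaged under 1 CPM in both groups. The part of such macrophages in the rise of Vcam1 was not tested.

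By adjusted p, the rises led with genes that change little within a group. Nfkbia, which encodes the NF-kB inhibitor IkB-alpha, had 4592, 5075 and 4890.0 CPM with TNFa and 257, 300.2, 303, 285 and 286 CPM with PBS (16.9-fold, adjusted p = 3.5e-14). Clec4e, the C-type lectin receptor Mincle, had 12311, 11743 and 11191 CPM against 455, 571, 589, 518 and 471 CPM (22.6-fold, adjusted p = 1.9e-13). Acod1, whose enzyme makes itaconate, had 4005, 5048 and 4941 CPM against 40.4, 37.5, 55.3, 55.4 and 33.1 CPM (105-fold, adjusted p = 2.6e-13). The spread within each group was small beside these rises. Cyfip1, a subunit of the WAVE complex that directs actin assembly, rose 26.3-fold to a mean of 1819.8 ± 93.6 CPM (SD, n = 3), and Irak3, an inhibitor of Toll-like and IL1 receptor signalling, rose 23.6-fold to 2829.7 ± 97.4 CPM.

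**Figure D2:**
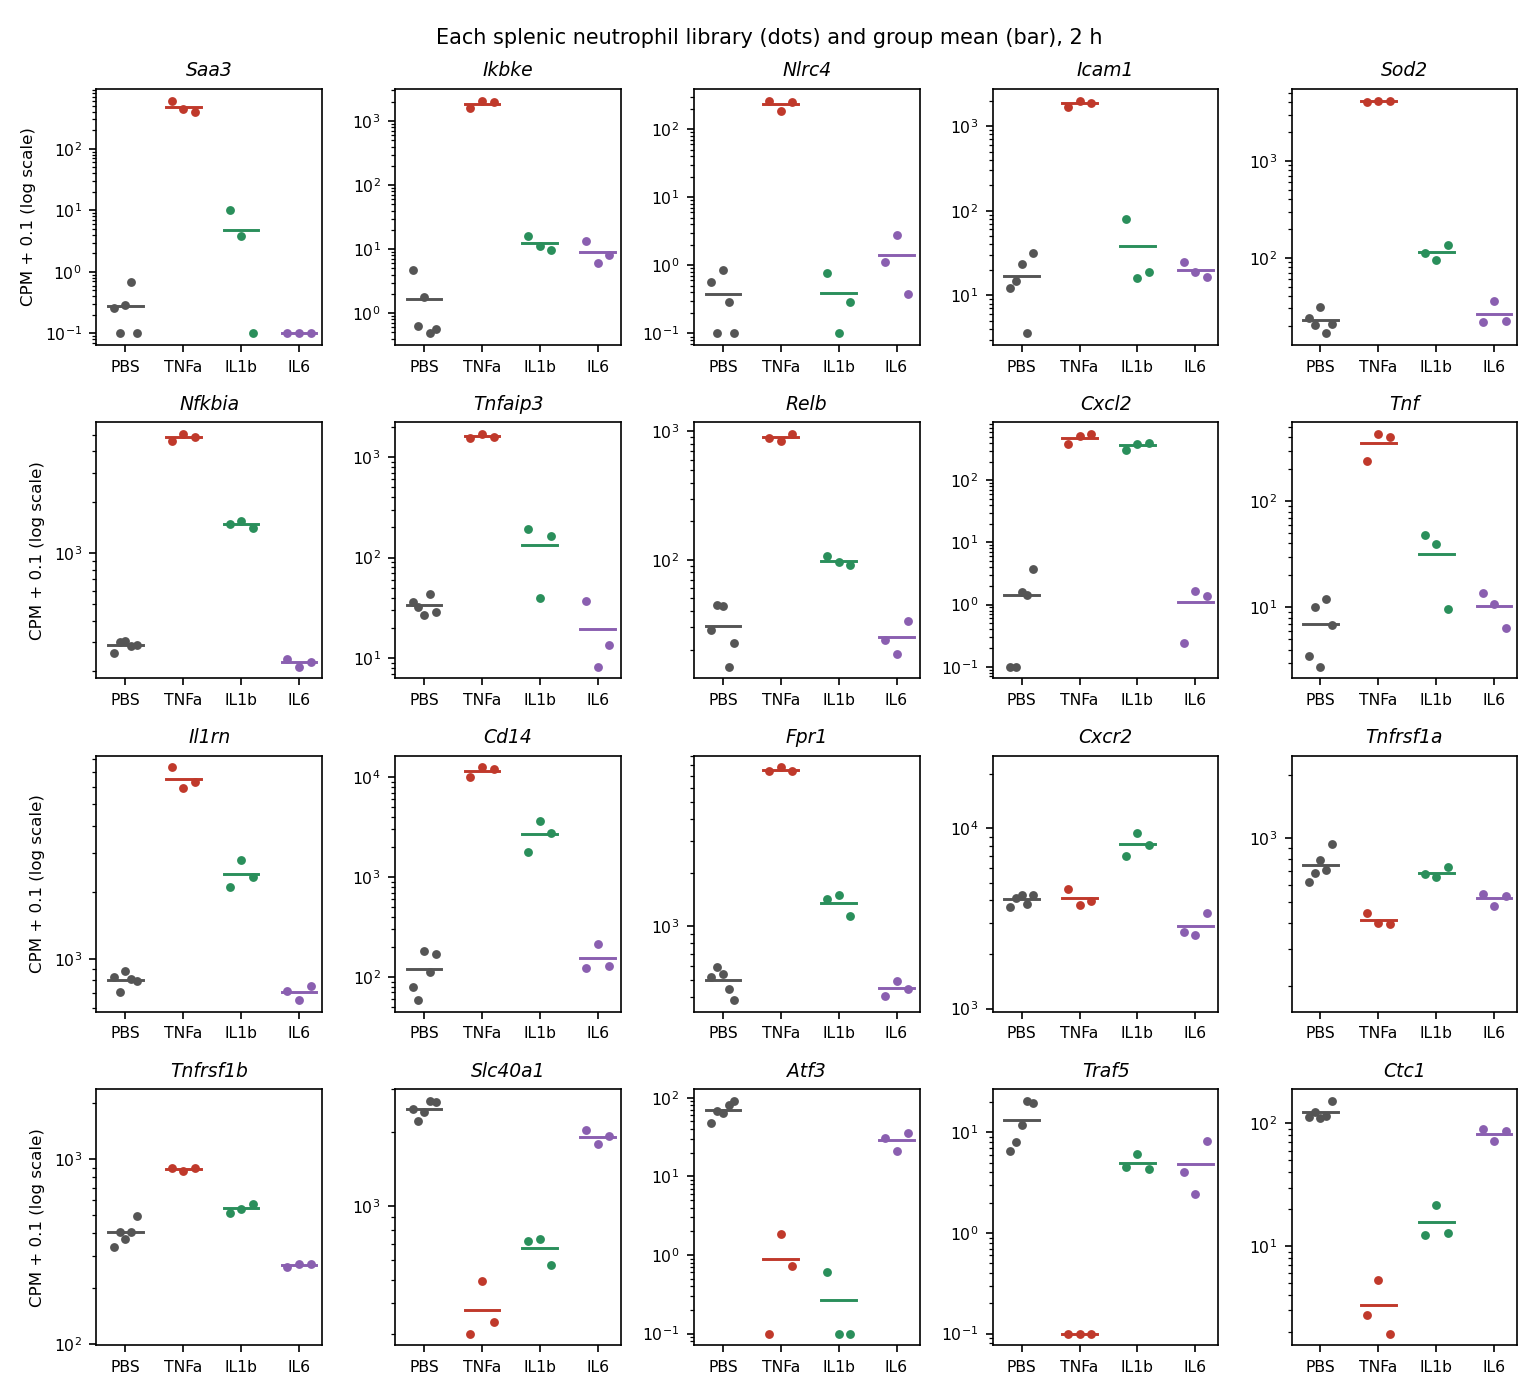
CPM plus 0.1 (log axes) of 20 genes in each splenic neutrophil library, grey PBS (n = 5), red TNFa (n = 3), green IL1b (n = 3) and purple IL6 (n = 3), with a bar at the group mean. The TNFa libraries lie above all PBS libraries from Saa3 to Fpr1 and in Tnfrsf1b, overlap with PBS in Cxcr2, and lie below PBS in Tnfrsf1a, Slc40a1, Atf3, Traf5 and Ctc1.

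The receptors and their proximal adaptors moved in both directions. Of 24 members tested, 10 rose and 4 fell, with a median log2 fold change of 0.85 (7 and 8 on library totals alone). Tnfrsf1a, the gene of TNFR1, had 445, 398 and 396 CPM with TNFa and 621, 686, 786, 706 and 940.5 CPM with PBS, and Tnfrsf1b, the gene of TNFR2, had 891, 859 and 899 CPM with TNFa and 333, 406, 371, 405 and 493 CPM with PBS. The receptor genes went opposite ways without overlap: Tnfrsf1a fell by 0.86 on the log2 scale (adjusted p = 6.9e-05) and Tnfrsf1b rose by 1.14 (adjusted p = 7e-07). Adam17, the protease that sheds both receptors, rose by 1.74 (adjusted p = 8.9e-07). Among genes whose products are known to hold back death from TNFR1, Cflar and Birc3 rose, while Birc2, Sharpin, Rbck1, Rnf31 and Otulin did not pass. Cflar, which encodes the caspase-8 inhibitor cFLIP, had 605, 692 and 673 CPM against 73.4, 65.9, 61.8, 76.3 and 88.4 CPM (8.98-fold, adjusted p = 3e-11). Birc3, which encodes the ubiquitin ligase cIAP2, had 1185, 1185 and 1129 CPM against 159.7, 157, 147, 118 and 177 CPM (7.70-fold, adjusted p = 1.4e-10). All 3 TNFa libraries of both genes exceeded each PBS library. Traf1 rose most of the list, while Traf5 (chr1:191997205-192092559, minus strand), another receptor adaptor, had no count in any TNFa library and 6.47, 7.95, 11.8, 20.5 and 19.5 CPM with PBS, at least 14.4-fold lower against a floor of 3 counts per library. Of the other called members, the deubiquitinase gene Cyld (1.33), Casp8 (1.82), the kinase genes Ripk1 (0.85) and Map3k7 (1.77) and the adaptor Traf2 (0.92) rose, and the kinase partner Tab1 fell (-1.82). Fadd was also called lower, from a mean of 0.776 CPM with PBS to no count with TNFa. The floor of the TNFa libraries averaged 0.921 CPM, so no fall can be bounded for it. The members that did not pass were Birc2 (0.85), Mlkl (2.58), Sharpin (-0.41), Tradd (0.55), Ripk3 (1.19), Tab3 (0.69), Otulin (-0.74), Tab2 (0.08), Rbck1 (-0.05) and Rnf31 (-0.04). Single libraries decided some of these calls. Map3k7 was not called without TNFa library 1 (adjusted p = 0.0636), Tab1 without TNFa library 2 (0.086) or 3 (0.0872), and Traf2 without PBS library 1 (0.0638) or 2 (0.0727) or TNFa library 1 (0.0885) or 3 (0.106). Birc2 was called without PBS library 1 or 4 (0.0497 each) and Mlkl without PBS library 4 (0.0214).

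Genes of NF-kB itself rose nearly throughout, 14 of 17 members against 1 lower, at a median of 1.73. Beside Nfkbia and Ikbke, the subunit gene Nfkb2 had 1161, 1238 and 1345 CPM with TNFa and 51.9, 44.9, 66.9, 44.5 and 84.3 CPM with PBS (4.42, adjusted p = 2.1e-11). Relb, the subunit that pairs with the product of Nfkb2, had 893, 850.1 and 956 CPM and 28.2, 44.4, 43.5, 14.6 and 22.5 CPM (4.87, adjusted p = 5.7e-10). The subunits of the canonical pathway rose by 2.21 ± 0.22 (Nfkb1), 1.19 ± 0.15 (Rela) and 1.15 ± 0.23 (Rel), and the difference between genes was not tested. The inhibitors rose with them, Nfkbib by 3.30 and Nfkbie by 4.29, as did the nuclear IkB proteins Nfkbiz (1.73), Bcl3 (1.45) and Nfkbid (1.54) and the kinase genes Map3k8 (1.84) and Ikbkb (0.73, but -0.05 on library totals alone). Map3k14, which encodes the kinase NIK that starts the alternative pathway, was the member that fell, from 43.5, 50.5, 60.04, 43.3 and 50.7 to 19.3, 9.79 and 22.4 CPM (log2 fold change -1.52, adjusted p = 0.0002). Ikbkg (0.48) and Chuk (0.41) did not pass.

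The promoter windows below are shown because all 6 genes rose at least 16-fold by the fitted value and the window holds the letters that NF-kB is known to bind. They are from RefSeq on GRCm38.p6, read 5' to 3' on the gene's strand, with the match to the 10-base NF-kB consensus motif in capitals and 20 bases on each side, ending earlier where the start base is reached.
Nfkbia: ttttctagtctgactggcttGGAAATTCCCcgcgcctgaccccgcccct
Nfkb2: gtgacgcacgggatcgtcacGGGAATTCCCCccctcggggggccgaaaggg
Cxcl2: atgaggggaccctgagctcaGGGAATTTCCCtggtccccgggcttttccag
Tnfaip3: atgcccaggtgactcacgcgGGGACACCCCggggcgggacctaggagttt
Sod2: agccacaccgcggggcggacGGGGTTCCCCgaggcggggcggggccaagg
Cxcl10: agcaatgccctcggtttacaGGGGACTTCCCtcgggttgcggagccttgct
Nfkbia holds its match 29 to 20 bases before the start (chr12:55492648-55492696, minus strand), Nfkb2 a pair of overlapping matches 39 to 29 bases before it (chr19:46304678-46304728, plus strand), Cxcl2 97 to 87 bases before it (chr5:90903782-90903832, plus strand), Tnfaip3 125 to 116 bases before it (chr10:19015506-19015555, minus strand), Sod2 83 to 74 bases before it (chr17:13007736-13007785, plus strand) and Cxcl10 104 to 94 bases before it (chr5:92348963-92349013, minus strand). Over the 250 bases before each start, on both strands, the consensus was found in 7.25% of 32851 promoters listed and in 8.79% of the 10545 promoters of genes tested. It was in 11.6% of the promoters of genes that rose, 7.82% of those that fell and 8.20% of those not called. Of 19 promoters of the NF-kB list, 7 held it (36.8%), and of 15 promoters of the genes raised most, 3 did, those of Cxcl2, Sod2 and Smpdl3b. Cd300ld and Eef2k, which fell, also hold a match. A match describes these letters and no more.

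The brakes on NF-kB rose too. Of 15 tested genes for feedback inhibitors and mRNA decay factors, 9 rose and 2 fell (median 0.83; 5 and 5 on library totals alone), and Tnip3 was too low to test. Tnfaip3, which encodes the deubiquitinase A20, had 1546, 1695 and 1599 CPM with TNFa and 36.1, 32.5, 26.98, 43.7 and 28.7 CPM with PBS (47.9-fold, adjusted p = 2.8e-08). Its partner Tnip1 had 848, 849 and 907 CPM against 62.4, 68.4, 69.2, 87.6 and 56.7 CPM (12.6-fold, adjusted p = 7.7e-11). N4bp1 (2.28), Tnfaip8 (1.85), Tax1bp1 (1.33) and Tnfaip2 (0.83) rose by less. Zfp36l2, a protein that speeds the decay of mRNAs, went the other way, from 34.4, 46.3, 55.1, 47.6 and 46.8 to 6.07, 3.85 and 3.07 CPM (-3.39, adjusted p = 2.4e-07), and so did Tnip2 (-1.46, adjusted p = 0.00025).

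**Figure D3:**
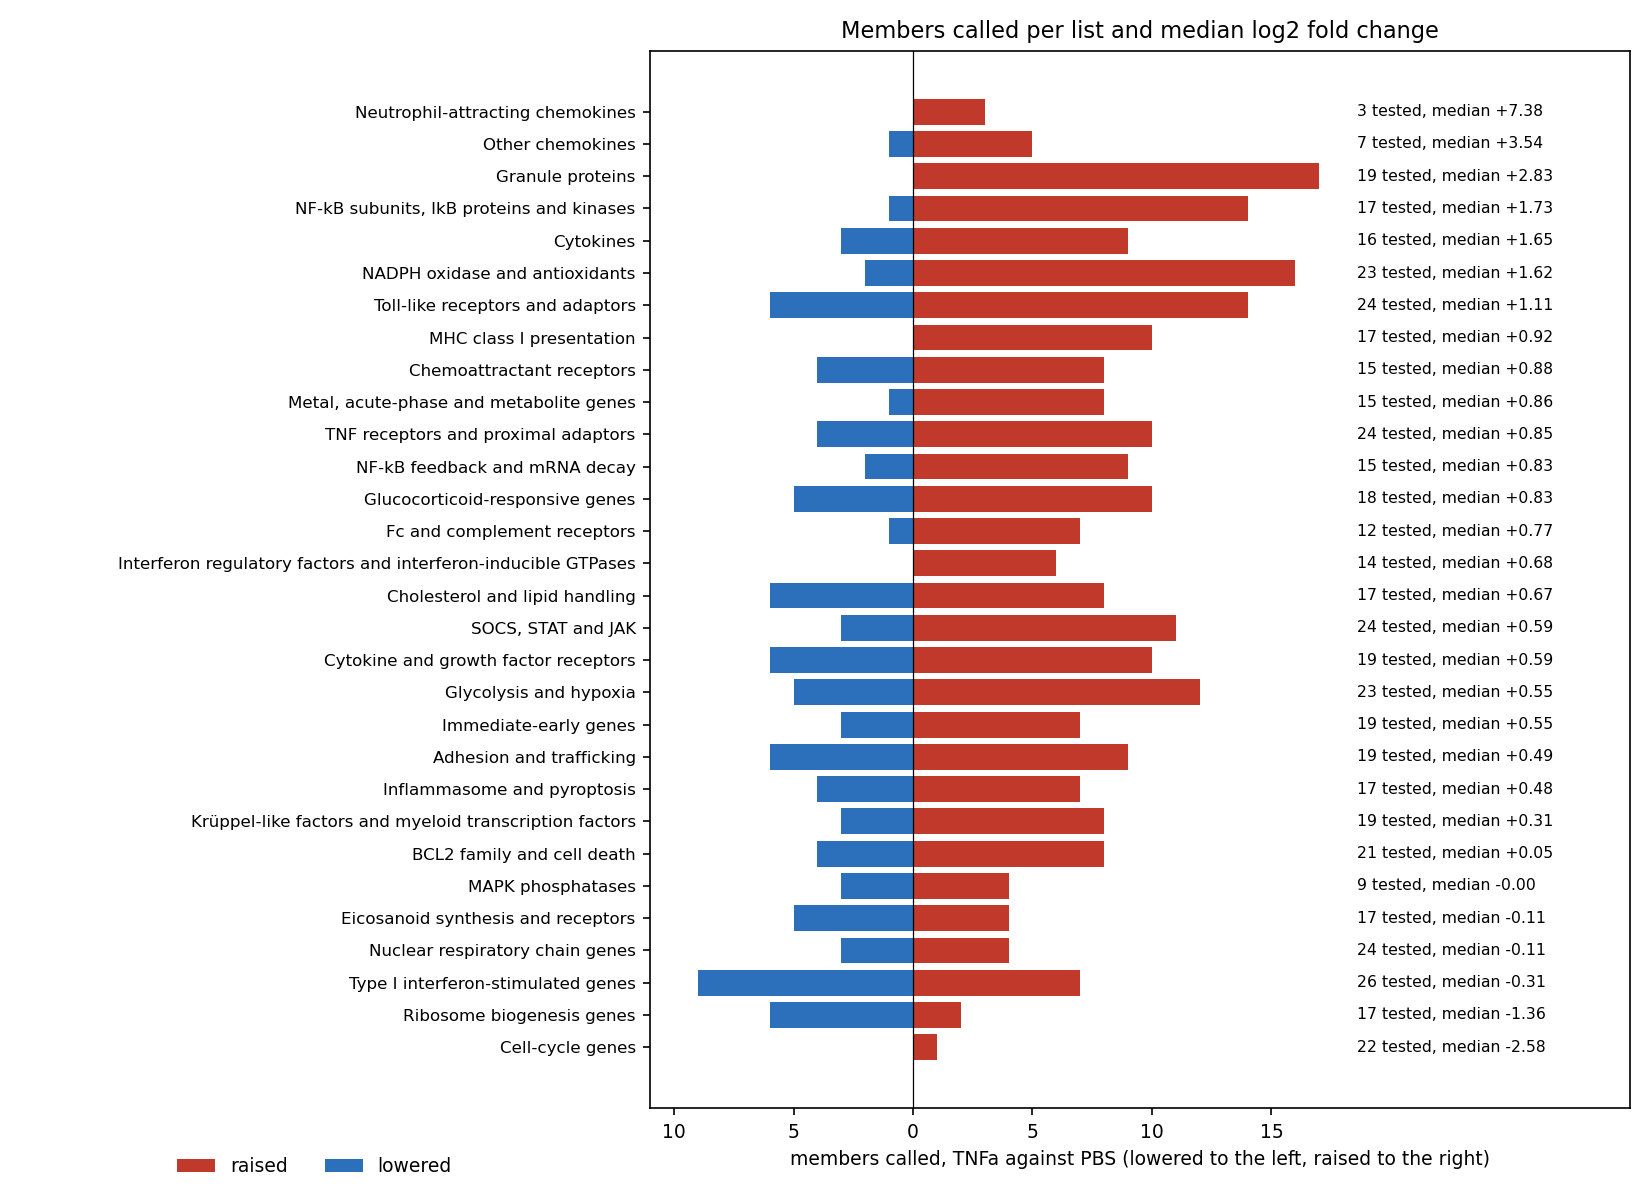
Number of members called raised (red, right) and lowered (blue, left) in each of the 30 gene lists, with the number tested and the median log2 fold change (TNFa minus PBS), ordered by that median. Granule proteins, the NF-kB list and the NADPH oxidase list have 17, 14 and 16 members raised, and type I interferon-stimulated genes have 7 raised and 9 lowered.

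Chemokines that attract neutrophils appeared in neutrophils themselves. Cxcl2, a ligand of CXCR2, had 383, 516 and 554 CPM with TNFa and 0, 0, 1.52, 1.34 and 3.67 CPM with PBS (chr5:90903871-90905938, plus strand; 8.65 ± 0.52, adjusted p = 9e-10). Cxcl3 had 7.12, 20.6 and 21.8 and 0, 0, 0, 0 and 0.459 CPM (7.38 ± 0.74, adjusted p = 4.4e-07). Ppbp was called higher at 0, 0 and 4.92 CPM, within reach of the PBS libraries at 0, 0.177, 0, 0 and 0 CPM, and is also a platelet marker. This call rests on TNFa library 3, without which the log2 fold change was -1.35 (adjusted p = 0.744), and it also ended without any PBS library (0.065 to 0.082). Cxcl1, Cxcl5 and Cxcl15 were too low to test. Among the other chemokines, 5 of 7 tested rose and 1 fell (median 3.54), and 12 of the 19 listed, Ccl2, Ccl7 and Ccl20 among them, were too low to test. Ccl3 (11.6-fold, to 96.1 ± 16.98 CPM), Ccl4 (8.02-fold, to 28.2 ± 9.40 CPM) and Ccl5 (41.04-fold, to 20.2 ± 4.08 CPM), which are CC chemokines, rose, as did Cxcl10, a ligand of CXCR3, which had 89.5, 59.4 and 122 CPM against 0, 0.177, 1.71, 0.767 and 0.918 CPM (adjusted p = 1.9e-05). Ccl6, a CC chemokine, fell from 3703, 3595, 3758, 3961 and 3674 CPM to 933, 770.4 and 752 CPM (4.57-fold lower, adjusted p = 1.3e-08). Cxcl16 was called higher at 3.17, 0 and 9.53 CPM.

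Of the cytokines, 9 of 16 tested rose and 3 fell (median 1.65), and 8 of 24, Il6, Il10 and Csf3 among them, were too low to test. The IL1 family changed most in Il1a, which had 95.3, 130.0 and 136 CPM with TNFa and 0.462, 0.353, 0, 0 and 0 CPM with PBS (9.19 ± 0.70, adjusted p = 1.7e-08). Il1b was already high with PBS, at 1461, 1771, 1979, 2419 and 2494 CPM, and reached 3719, 3199 and 3609 CPM (0.79 ± 0.16, adjusted p = 0.00092), a rise that ends on library totals alone. Il1rn, which encodes the antagonist of both, had 7351, 5927 and 6292 CPM against 827, 712, 883, 813 and 795 CPM (3.02 ± 0.12, adjusted p = 4.3e-12). Tnf itself had 239, 429.6 and 402 CPM against 3.39, 10.1, 2.66, 11.9 and 6.66 CPM (51.5-fold, adjusted p = 6.9e-08). Genes of IL12-family subunits rose, Ebi3 by 2.86 to 719 ± 57.6 CPM and Il23a by 6.65 to 52.2 ± 17.03 CPM, and Osm, an IL6-family cytokine, by 1.87. Tnfsf14, which encodes the TNF-family ligand LIGHT, fell from 385, 467, 559, 449 and 501 to 86.02, 32.5 and 45.2 CPM (8.59-fold, adjusted p = 3.7e-08), and Il15 fell 2.95-fold (adjusted p = 2.9e-05).

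Receptors for cytokines and growth factors split, with 10 of 19 tested higher and 6 lower (median 0.59; 4 and 8 on library totals alone). Il10ra, the ligand-binding chain of the IL10 receptor, had 640.1, 471 and 508 CPM with TNFa and 43.6, 39.8, 56.4, 33.6 and 58.8 CPM with PBS (11.6-fold, adjusted p = 1e-09), and its partner Il10rb rose 2.71-fold. Il1r2, a decoy receptor for IL1, had 3222, 2547 and 2696 CPM against 1157, 922, 1004, 634 and 780.2 CPM (3.14-fold, adjusted p = 4.6e-06). Csf3r, the receptor for G-CSF that neutrophils need to form and survive, had 3207, 2537 and 2652 CPM against 6310.1, 7435, 7151, 7632 and 7932 CPM, 2.61-fold lower (adjusted p = 1.2e-07). The beta chain shared by the GM-CSF and IL3 receptors, Csf2rb, rose 2.13-fold (adjusted p = 1.7e-05) and Ifnar1 rose 2.48-fold (adjusted p = 7.3e-07). Tgfbr2 fell 7.51-fold, from 166, 194, 169, 174 and 175 to 24.01, 24.8 and 21.2 CPM (adjusted p = 6.2e-09).

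Receptors that sense chemoattractants rose in 8 and fell in 4 of 15 tested (median 0.88; 6 and 7 on library totals alone). The formyl peptide receptor Fpr1 had 7429, 7806 and 7437 CPM with TNFa and 517, 593, 539, 445 and 383 CPM with PBS (15.2-fold, adjusted p = 1.6e-12), and its relative Fpr2 rose 10.2-fold (adjusted p = 3.3e-11). Ccrl2, an atypical receptor that presents chemerin, had 925, 1141 and 1199 CPM against 4.32, 7.07, 24.7, 14.8 and 8.73 CPM (91.7-fold, adjusted p = 2.5e-09). The medium-chain fatty acid receptor Gpr84 had 367, 363 and 339 CPM against 6.93, 4.59, 6.08, 6.71 and 5.05 CPM (60.2-fold, adjusted p = 6.7e-12). Of the complement receptors, C5ar1 rose by 1.60 and C5ar2 fell by 2.21 on the log2 scale, from 264, 267, 233, 262 and 336 to 72.04, 53.5 and 51.02 CPM (adjusted p = 1.7e-08). The receptors for platelet-activating factor, Ptafr (1.99), and for leukotriene B4, Ltb4r1 (1.30), rose. Cxcr2, the main chemokine receptor of neutrophils, had 4628, 3761 and 3950.0 CPM against 3635, 4114, 4287, 3822 and 4283 CPM and did not pass (0.03 ± 0.12), though on library totals alone it was called lower (-0.75). Cxcr3 had no count with TNFa and 16.6, 11.7, 10.8, 3.64 and 18.4 CPM with PBS, at least 13.3-fold lower.

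Adhesion genes were led by Icam1, a ligand of beta 2 integrins, with 1692, 1999 and 1870.0 CPM with TNFa and 12.02, 14.7, 23.2, 3.45 and 31.9 CPM with PBS (109.8-fold, adjusted p = 3.2e-08). In all, 9 of 19 tested rose and 6 fell (median 0.49; 2 and 8 on library totals alone). The integrin beta 1 gene Itgb1 rose 10.5-fold, from 23.3, 10.6, 42.9, 9.97 and 11.5 to 288, 163 and 171 CPM (adjusted p = 2.8e-06). Selplg, which encodes the selectin ligand PSGL-1 of the rolling step, had 1591, 1683 and 1679.8 CPM against 2969, 3043, 3293, 3447 and 3795 CPM (2.00-fold lower, adjusted p = 2.2e-06). The groups did not overlap. Jaml, an adhesion protein of the junctional family, fell 3.08-fold (adjusted p = 2e-07) and the integrin gene Itgax 2.35-fold (adjusted p = 0.00095).

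Sensors of microbes rose in 14 and fell in 6 of 24 tested (median 1.11). Cd14, the coreceptor that hands lipopolysaccharide to TLR4, had 9946, 12526 and 12102 CPM with TNFa and 79.1, 58.5, 179.9, 111 and 168 CPM with PBS (96.8-fold, adjusted p = 2.1e-10). Tlr2, a receptor for bacterial lipoproteins, had 2279, 1972 and 1858 CPM against 177, 159, 197, 176 and 191 CPM (11.3-fold, adjusted p = 3.3e-12), and Tlr13, which senses bacterial ribosomal RNA, rose 2.15-fold. Trem1, an amplifying receptor, rose 3.31-fold, the signalling kinase gene Irak2 6.06-fold and the peptidoglycan sensor Nod1 4.30-fold. In the same list Clec7a, the beta-glucan receptor Dectin-1, fell from 740.2, 850.2, 682, 802 and 831 to 279, 139 and 105 CPM (4.48-fold, adjusted p = 1.6e-06) and was chosen after its values were seen. Fc and complement genes counted 7 higher and 1 lower of 12 tested (median 0.77; 4 and 4 on library totals alone). C3, the central complement protein, had 2769, 3456 and 2929 CPM against 388, 361, 488, 331 and 328 CPM (8.04-fold, adjusted p = 3.2e-11), the complement regulator Cd55 rose 20.3-fold, the inhibitory receptor Fcgr2b 11.2-fold and the activating chain Fcer1g 2.91-fold.

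Granule proteins rose in 17 of 19 tested, with a median log2 fold change of 2.83; Mpo, Elane, Ctsg and Bpi, made in bone marrow precursors, were too low to test. Mmp8, neutrophil collagenase, had 22564, 24336 and 22272 CPM with TNFa and 3512, 3090.1, 3834, 2122 and 1859 CPM with PBS (8.00-fold, adjusted p = 1.3e-09). Lcn2, which withholds iron from bacteria by binding their siderophores, had 8879, 9305 and 13125 CPM against 1160.0, 759, 1028, 519 and 404 CPM (13.5-fold, adjusted p = 8.4e-09). Chil1, a chitinase-like protein, had 9571, 7459.6 and 7952 CPM against 1181, 737, 895, 727 and 542 CPM (10.2-fold, adjusted p = 4.6e-10). The PBS libraries spread widely in the lowest of these genes, and Olfm4, a protein of specific granules in a subset of neutrophils, ran over 52.4, 34.8, 60.99, 21.3 and 7.58 CPM with PBS and 1137, 704 and 741 CPM with TNFa (4.59, adjusted p = 1.4e-07). Pglyrp1 (1.90), which binds peptidoglycan, Mmp25 (3.04), Hp, haptoglobin (1.41), and Wfdc21 (3.11) rose without overlap. The genes of specific granules that mark younger neutrophils spread most. Ngp had 8592, 1045, 3080.3, 326 and 372 CPM with PBS and 22236, 24354 and 24224 CPM with TNFa. Ltf, which encodes lactoferrin, had 7866, 661, 2991, 442 and 289.8 and 11683, 15402 and 16203 CPM. Camp, a cathelicidin, had 3619, 387, 1212, 112 and 169 and 7629, 7927 and 7958 CPM. They lay as high or higher with IL6, with Ngp at 26629.7, 30751 and 22574 CPM, Ltf at 26985, 27452 and 21626 CPM and Camp at 11143, 14123 and 9874 CPM. Over the 13 markers of immature neutrophils the summed level was 1409 to 23510 CPM with PBS and 53190 to 64900 CPM with TNFa, and the part of a changed share of younger cells in the granule result was not tested. Without PBS library 1, the highest of its group in Ngp, Ltf and Camp, the granule list had 17 members higher, at a median of 3.32. Leaving out the highest control lowers the PBS mean of these genes, so it cannot test the share of younger cells. With the replicate number as a block 15 members were higher (median 2.33), and without TNFa library 2 or 3 also 15. Mmp8 lay at 3779, 3299 and 3129.5 CPM with IL6. Mmp9, gelatinase, did not pass at 6173, 6605 and 6620.5 CPM against 5672, 5157, 5119.6, 5923 and 4886 CPM (0.27 ± 0.16) and was called lower on library totals alone (-0.51).

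**Figure D4:**
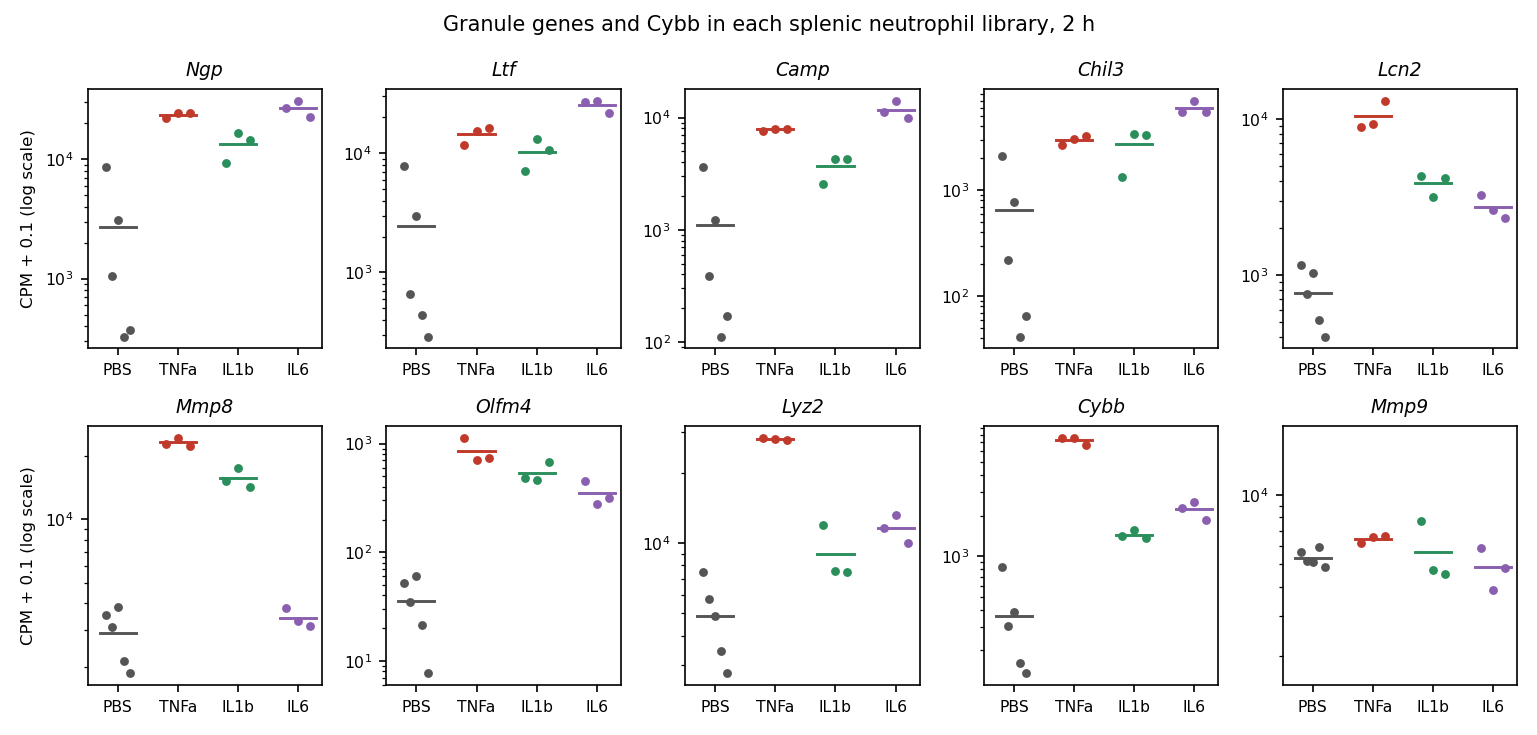
CPM plus 0.1 (log axes) of 9 granule genes and Cybb in each splenic neutrophil library, grey PBS (n = 5), red TNFa (n = 3), green IL1b (n = 3) and purple IL6 (n = 3), with a bar at the group mean. Ngp, Ltf, Camp and Chil3 spread widely among the PBS libraries and are as high or higher with IL6 than with TNFa, whereas Mmp8 and Lyz2 are highest with TNFa.

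The oxidative system rose in 16 members and fell in 2 of 23 tested (median 1.62). Cybb, the catalytic subunit gp91phox of the NADPH oxidase, had 7603, 7501 and 6643 CPM with TNFa and 831, 301, 383, 160.3 and 135 CPM with PBS (20.01-fold, adjusted p = 2.4e-07). With PBS, Cybb was highest in library 1, as were Ngp, Ltf and Camp, and the part of a changed share of younger cells in its rise was not tested. The membrane partner Cyba rose 2.66-fold and the cytosolic subunits Ncf1 5.76-fold and Ncf4 4.39-fold. On the protective side, Sod2 stood at 4117 ± 78.8 CPM (SD, n = 3) against 22.5 ± 5.50 CPM (SD, n = 5). The peroxiredoxin gene Prdx5 rose 6.62-fold to 4798 ± 792 CPM, the thioredoxin reductase gene Txnrd1 14.1-fold and Nfe2l2, which encodes the antioxidant regulator NRF2, 3.08-fold. Metal, acute-phase and metabolite genes counted 8 higher and 1 lower of 15 tested (median 0.86). Fth1, the ferritin heavy chain, had 34632, 36379 and 38482 CPM against 3028, 3090.4, 3742, 3219 and 4386 CPM (10.4-fold, adjusted p = 1.2e-11); near-identical copies of it in the genome make its counts uncertain. Slc40a1, the iron exporter ferroportin, went the other way, from 2495, 2216, 2425, 2690.0 and 2664 to 301, 494 and 336 CPM (6.63-fold, adjusted p = 9e-10). It is also in the red pulp macrophage list, of which it makes up most of the summed level with PBS. Upp1, uridine phosphorylase, rose 52.9-fold to 494 ± 101 CPM (adjusted p = 4.1e-10).

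Survival and death genes counted 8 higher and 4 lower of 21 tested (median 0.05; 6 and 7 on library totals alone). The survival genes of the A1 cluster rose, Bcl2a1b to 294, 224 and 259.7 CPM from 2.00, 4.59, 7.79, 3.45 and 5.51 CPM (adjusted p = 9.5e-11), Bcl2a1a by 5.81 and Bcl2a1d by 6.57; these copies are near-identical and their split is uncertain. Bcl2l1, which encodes BCL-XL, rose 3.98-fold (adjusted p = 1.1e-06). Genes that drive death rose beside them, the death receptor Fas from 116, 138, 139.7, 111 and 148 to 1141, 1227 and 1227 CPM (9.19-fold, adjusted p = 9.9e-12) and Bcl2l11, which encodes BIM, 5.43-fold (adjusted p = 7.3e-08). Bid fell 2.23-fold (adjusted p = 4.9e-05). Bmf had no count with TNFa against 9.55, 18.4, 2.09, 7.48 and 11.02 CPM, at least 10.5-fold lower. Mcl1, on which neutrophils depend, did not pass at 422, 435 and 409 CPM against 387, 464, 554, 494 and 534 CPM. It was called lower on library totals alone (-0.99, adjusted p = 5.5e-06) and over genes of at least 20 CPM on average (-0.28, adjusted p = 0.0407). In the inflammasome list 7 rose and 4 fell of 17 tested (median 0.48; 5 and 6 on library totals alone). After Nlrc4, Ninj1, whose protein ruptures the membrane of dying cells, rose 6.39-fold to 2385 ± 162 CPM, Casp4, the sensor of cytosolic lipopolysaccharide, 5.40-fold, the pyrin gene Mefv 4.74-fold and Casp1 2.64-fold (adjusted p = 7.6e-10, 4.2e-07, 6.8e-07 and 2.5e-05). The sensors Nlrp1a and Aim2 fell, Nlrp1a from 27.1, 41.7, 50.9, 51.00 and 43.4 to 3.17, 8.04 and 0.922 CPM and Aim2 from 22.2, 21.7, 33.4, 25.5 and 30.8 to 2.90, 3.50 and 6.76 CPM (adjusted p = 3e-05 and 0.00017), as did the gasdermin gene Gsdme (-1.56).

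Interferon-linked genes moved in both directions. Of 26 tested type I interferon-stimulated genes, 7 rose and 9 fell (median -0.31), a majority that rests on single libraries, since without TNFa library 2 the counts were 6 and 6 and without library 3 they were 7 and 6. Oasl1 had 16.1, 32.9 and 30.4 CPM against 129, 94.4, 159, 122 and 140.1 CPM (-2.29, adjusted p = 4.9e-05). Oasl2 had 239, 132 and 129 CPM against 504, 488, 654, 511 and 915 CPM (-1.88, adjusted p = 0.00012), and Ifit3 55.7, 6.64 and 8.30 CPM against 161, 72.5, 118, 154 and 129 CPM (-2.40, adjusted p = 0.0027). Ifi204, a DNA sensor of the IFI200 family, rose from 91.8, 73.9, 139, 80.5 and 105 to 773, 542 and 605 CPM (2.71, adjusted p = 2.3e-08), Parp14 by 2.16 and Isg15 by 1.12. The interferon regulatory factors and inducible GTPases gave 6 higher of 14 tested (median 0.68; 3 and 6 on library totals alone). Gbp5, a guanylate-binding protein, had 238, 166 and 234 CPM against 0, 2.47, 2.66, 3.64 and 1.61 CPM (6.69, adjusted p = 3.8e-08), Gbp2 rose by 2.49 and Irf5 by 2.19; similar copies make the Gbp counts uncertain. MHC class I genes counted 10 higher of 17 tested (median 0.92; 4 and 7 on library totals alone), led by the proteasome activator Psme2 (3.00) and including the light chain B2m (0.92), the transporter Tap1 (0.96) and the class I transactivator Nlrc5 (1.95). Transcripts of antigen presentation by class II appeared as well: Cd74, the invariant chain, had 746, 490.4 and 584 CPM against 6.47, 5.48, 13.1, 8.05 and 8.73 CPM and H2-Aa 0, 5.24 and 14.8 CPM against none in any PBS library, at least 11.8-fold higher. Both are in the 10-gene dendritic cell list, whose summed level was 14.0 to 26.4 CPM with PBS and 507 to 760 CPM with TNFa. Of its 6 tested members these 2 were called higher and 1 lower. H2-Ab1, another class II gene of the list, was thus not called higher. Of the cell-defining members, Xcr1, Flt3 and Zbtb46 reached at most 0.383, 5.32 and 8.97 CPM in the 8 libraries. Clec9a averaged 2.46 CPM with PBS and had no count with TNFa. Without TNFa library 3 the bound of H2-Aa was 4.64-fold, from a mean of 2.62 CPM, and its call ended (adjusted p = 0.06). The part of dendritic cells in this result was not tested.

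Signalling genes downstream of cytokine receptors gave 11 higher and 3 lower of 24 tested (median 0.59; 6 and 8 on library totals alone). Cish, a feedback inhibitor of STAT5, had 277, 142 and 169 CPM with TNFa and 1.54, 3.36, 1.90, 0.383 and 0 CPM with PBS (7.01, adjusted p = 4.6e-09). Socs1 had 45.1, 43.3 and 43.6 CPM against 4.47, 3.36, 5.51, 0.383 and 2.07 CPM (3.78, adjusted p = 7.1e-06). Tyk2, a Janus kinase, had 472, 538 and 505 CPM against 36.1, 45.9, 36.1, 45.6 and 47.99 CPM (3.58, adjusted p = 1.9e-09). The kinase gene Pim1 (2.16) and the phosphatase gene Ptpn1 (2.51) rose, and Stat5b fell from 173, 261, 239, 229 and 357 to 27.7, 23.4 and 56.6 CPM (-2.81, adjusted p = 4.6e-07). Immediate-early genes gave 7 higher and 3 lower of 19 tested (median 0.55; 2 and 8 on library totals alone, and 3 and 3 without TNFa library 3). Ier3, a survival gene of this class, rose 14.8-fold, from 16.8, 29.9, 36.3, 35.7 and 39.5 to 394, 445 and 557 CPM (adjusted p = 2.7e-10). Atf3, a stress-induced repressor, had 0, 1.75 and 0.615 CPM with TNFa and 47.00, 66.8, 63.5, 80.9 and 91.4 CPM with PBS (-6.55 ± 0.61, adjusted p = 2e-07). Fos (-1.30) and Jund (-2.29) fell with it. MAP kinase phosphatases and their relatives gave 4 higher and 3 lower of 9 tested (median -0.00; 3 and 3 on library totals alone), with Dusp16 from 21.6, 25.6, 49.6, 27.99 and 56.3 to 765, 831 and 573 CPM, Dusp2 higher by 5.67, and Dusp6 (-1.15) and Spry2 (-4.37) lower. Krüppel-like and myeloid transcription factors gave 8 and 3 of 19 (median 0.31; 7 and 8 on library totals alone). Mxd1, a MAX partner that is abundant in mature neutrophils, rose 3.65-fold to 13517 ± 319.8 CPM (adjusted p = 6.1e-10), Bhlhe40 28.7-fold and Id2 10.2-fold, while Runx3 fell to 0.264, 0.699 and 0.922 CPM from 9.25, 20.9, 8.93, 16.9 and 7.81 CPM (adjusted p = 0.00023).

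Genes known to answer glucocorticoids gave 10 higher and 5 lower of 18 tested (median 0.83; 5 and 6 on library totals alone). The members moved both ways. Per1, a clock gene, rose by 2.22, and Tsc22d3, which encodes GILZ, had 817, 818 and 789.6 CPM against 1712, 1902, 2183, 1355 and 1918 CPM (-1.17, adjusted p = 4.5e-06). Rgs2, a brake on G-protein signals, had 28.8, 41.9 and 47.03 CPM against 317, 469, 440.5, 433 and 448 CPM (-3.43, adjusted p = 4.5e-09). Glycolysis and hypoxia genes gave 12 higher and 5 lower of 23 tested (median 0.55; 4 and 9 on library totals alone). Hif1a, the hypoxia-inducible factor, rose 5.74-fold (adjusted p = 1.5e-10) and Ldha 2.85-fold, whereas Hk2 fell 7.04-fold and Pfkfb4 3.72-fold (adjusted p = 6.9e-06 and 7.9e-09). Cholesterol and lipid genes gave 8 and 6 of 17 (median 0.67; 5 and 6 on library totals alone). Srebf2, a regulator of cholesterol synthesis, had 103, 98.2 and 103 CPM with TNFa and 17.4, 11.1, 13.3, 22.4 and 11.9 CPM with PBS (2.73, adjusted p = 1.1e-07). The cholesterol exporter Abcg1 fell from 397, 351, 384, 457 and 449 to 73.6, 26.9 and 60.9 CPM (-2.91, adjusted p = 6.6e-08). Eicosanoid genes gave 4 and 5 of 17 (median -0.11), or 6 and 6 without PBS library 1, with the prostaglandin E synthase Ptges higher by 4.68 and Alox5, which starts leukotriene synthesis, lower at 368, 361 and 249 CPM against 676, 694, 647, 491 and 614 CPM (adjusted p = 6.6e-05).

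Ribosome biogenesis genes that were called mostly fell. Of 17 ribosome biogenesis genes tested, 2 rose and 6 fell (median -1.36), with Pes1 at 0.792, 0 and 1.54 CPM against 13.6, 21.6, 36.5, 19.9 and 36.3 CPM (-4.95, adjusted p = 8.2e-06) and the polymerase subunit Polr1a higher by 1.06. With a stricter filter, at least 10 CPM in at least 3 libraries, 8 members were tested, 1 higher and 6 lower (median -1.59). Over genes of at least 20 CPM on average only 2 members were left, 1 higher and 1 lower (median 0.06). Nuclear genes of the respiratory chain gave 4 higher and 3 lower of 24 tested (median -0.11; 0 and 15 on library totals alone), near the median of all genes. Of 22 cell-cycle genes, Mki67 was called higher and none lower (edgeR; 5 were lower at an unadjusted p below 0.05, and DESeq2 called 4 lower). The count depends on the settings: 11 were called lower with no filter on low counts, 2 with the replicate number as a block, and 6, with none higher, on library totals alone. The median of -2.58 became -0.52 without PBS library 1, which is high in genes such as Cdc20 at 26.7, 1.94, 0.38, 0.575 and 0.459 CPM with PBS and 0.528, 0 and 0 CPM with TNFa. Without PBS library 3, 1 member was called lower, and without library 4 or 5, 3 members each. The filter on low counts ran over all 14 neutrophil libraries, so members could be tested through other groups than PBS and TNFa. With only the PBS and TNFa libraries in the fit, 8 members were tested, of which 1 was called higher and 0 lower (median -0.86).

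The largest falls were in genes of many functions. After Irf2bpl (-6.59) and Atf3 came Otulinl (-6.48), Nsmf (-6.14), Eef2k, the kinase that slows translation elongation (-6.13), Pik3r2, a regulatory subunit of PI3-kinase (-5.76), Tex2 (-5.75), Abhd15 (-5.56), and Prr5l, a partner of mTORC2 (-5.41). They were followed by Ctc1, a telomere maintenance protein (-5.26), Iqce (-5.09), the taste receptor Tas2r126 (-5.08), Fech, which completes haem synthesis (-5.07), and Fnip2 (-5.05), with adjusted p from 1.5e-09 to 0.00021. Prr5l had 222, 186, 277, 299 and 343 CPM with PBS and 0.264, 12.9 and 6.45 CPM with TNFa. Ctc1 had 112, 123, 111, 115 and 152 CPM and 2.64, 5.24 and 1.84 CPM. By adjusted p, the falls of abundant genes led. Emb, a membrane partner of lactate transporters, had 1096, 1233, 1159, 1229 and 1192 CPM with PBS and 307, 303 and 274 CPM with TNFa (4.01-fold, adjusted p = 4.8e-10). Dck, deoxycytidine kinase, fell 8.69-fold, the surface receptor Cd300ld 5.46-fold and Tmem43 8.95-fold (adjusted p = 9e-10, 1.2e-09 and 1.9e-09).

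Set against IL1b in the same cells, 1130 genes were higher with TNFa (10.1%) and 1289 lower (11.5%); the same 3 TNFa libraries enter here, so this is not independent of the comparison with PBS. By the same rule, Nlrc4 differed most, at 0.676, 0 and 0.191 CPM with IL1b, 9.46 ± 0.69 below TNFa on the log2 scale (adjusted p = 3.9e-08). Ikbke had 16.1, 11.3 and 9.57 CPM with IL1b (7.24, adjusted p = 2.2e-08) and Saa3 10.1, 3.76 and 0 CPM (6.66, adjusted p = 3.6e-06). Layn (6.86), Osbpl3 (6.80), Lacc1 (6.67), Adgb (6.53) and Mfsd7a (6.31) completed the 8 largest. Cxcl2 did not differ by this test, at 302, 385 and 399.6 CPM with IL1b (0.42 ± 0.42, adjusted p = 0.54), nor did Snai1 (-0.27 ± 0.51, adjusted p = 0.76). Lower with TNFa than with IL1b was Tgm1, transglutaminase 1, at 0.264, 2.80 and 4.92 CPM against 96.3, 350.0 and 379 CPM (-6.73, adjusted p = 0.0001). Tlr1 was at 0, 1.05 and 0 CPM against 14.5, 41.8 and 47.3 CPM (-6.68, adjusted p = 0.00075). Tnfrsf18, which encodes the TNF-family receptor GITR, was at 0.264, 0 and 1.23 CPM against 18.4, 33.6 and 36.8 CPM (-5.81, adjusted p = 4.7e-06). Ccnf, Coro2a, Pla2g15, Rab23 and Ppp1r16b were the others, at -6.08 to -4.60, of which Ccnf was not called without IL1b library 2 or without any 1 of the TNFa libraries (adjusted p = 0.0574 to 0.0851). In the NF-kB list 11 of 17 members were higher with TNFa and 1 lower, in the NADPH oxidase list 13 and 2 of 23, and in the type I interferon list 2 and 14 of 26.

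Set against IL6, 1751 genes were higher with TNFa (15.6%) and 1884 lower (16.8%), again with the same TNFa libraries. The genes highest above IL6 were Saa3, at 0 in all IL6 libraries, Mfsd7a (10.70), Il1a (10.69), Adora2b, Rrad and Layn, all at 0 with IL6, Il23a (9.49) and Cxcl2, at 0.144, 1.56 and 1.26 CPM with IL6 (8.91 ± 0.65, adjusted p = 2e-08). Adora2b, an adenosine receptor, had 38.00, 28.3 and 32.6 CPM with TNFa and 0.154, 2.47, 0.19, 0 and 0 CPM with PBS, and Rrad, a small GTPase, 18.2, 27.3 and 32.9 and 0, 0, 0, 0.767 and 0.23 CPM. The genes furthest below IL6 were all of the cell cycle. Cdc20 had 60.2, 87.6 and 52.4 CPM with IL6 and 0.528, 0 and 0 CPM with TNFa (-8.22, adjusted p = 0.0033). Ccna2 had 48.8, 72.2 and 57.2 and 0.264, 0 and 0 CPM (-8.90, adjusted p = 0.0021). Ccnb1 had 43.9, 28.1 and 27.3 and 0, 0.35 and 0 CPM (-8.03, adjusted p = 0.0016), followed by Bub1b (-7.89) and Smc2 (-7.84), while Ube2c, Cdca2 and Cdca3 had no count with TNFa. Of 22 cell-cycle genes 17 were lower with TNFa than with IL6. The filter on low counts included the IL6 libraries, so members could enter this test through their level with IL6 alone. Only 8 passed it when the PBS and TNFa libraries were fitted without the others. PBS library 1 carried more of these transcripts than the other PBS libraries, as the values of Cdc20 show, and it was also the highest in Ngp, Ltf and Camp. In the NF-kB list 14 of 17 were higher with TNFa than with IL6 and 1 lower.

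The response of neutrophils was set against that of Ly6C+ monocytes of the spleen, each against its own PBS libraries, as the difference of the log2 fold changes (CPM here are scaled within the 16 libraries of the fit). Of 12880 genes tested, 1182 responded higher in neutrophils (9.18%) and 1962 lower (15.2%), a split that depends on the scaling, at 1455 and 1473 with RLE factors, 1501 and 1434 with upper quartile factors and 1739 and 1855 with DESeq2. Leaving out 1 of the monocyte PBS libraries gave 1410 to 1445 higher and 1196 to 1253 lower, so the majority changed side. The median difference over all genes tested then moved from -0.33 to between -0.07 and -0.06. Nlrc4 rose from 36.00 to 157 CPM in monocytes, a response of 2.13 against 9.39 in neutrophils (difference 7.27 ± 0.48, adjusted p = 5.3e-09). Filip1l was at 205 CPM in monocytes with PBS already (difference 7.83, adjusted p = 1.3e-09), as was Mfsd7a at 77.9 CPM (7.49, adjusted p = 1.3e-07). Dennd2a (8.94), Pnpla1 (7.08), Tubb2a (6.73), Tesk2 (6.37) and Abcd2 (6.20) followed, of which Tesk2 and Abcd2 went down in monocytes, from 11.96 to 0.463 and from 149 to 0.894 CPM. The difference in Pnpla1 was not called without monocyte PBS library 2 (adjusted p = 0.107). Among list members Ikbke (6.02), Mmp8 (4.67), Irak3 (3.24), Tyk2 (3.00), Cybb (2.94), Icam1 (2.72) and Sod2 (2.39) responded more in neutrophils (adjusted p at most 0.00064).

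Lower responses in neutrophils than in monocytes included genes that neutrophils held high without TNFa. Dusp1 rose from 14.9 to 1441 CPM in monocytes (6.60) and by 0.76 in neutrophils, where it stood at 2640.1 CPM with PBS (difference -5.84 ± 0.25, adjusted p = 5e-11). Il1b went from 39.6 to 1846 CPM in monocytes, against 2663 to 4117 CPM in neutrophils (difference -4.91, adjusted p = 2e-08), Socs3 from 91.04 to 1877 CPM against 921 to 1279 CPM (-3.89, adjusted p = 1.3e-08) and Il1rn from 31.3 to 3107 CPM against 1063 to 7656 CPM (-3.78, adjusted p = 7.4e-11). Hmox1, haem oxygenase, rose to 4356 CPM in monocytes and 219 CPM in neutrophils (-4.40, adjusted p = 3.8e-09). Genes with no count in the TNFa neutrophils were measured in monocytes: Traf5 was at 27.4 CPM with PBS and 15.5 CPM with TNFa there, and Abce1, Rars2 and Ddx10, at 0 in the neutrophils given TNFa, at 136, 21.7 and 40.6 CPM. Neutrophils given PBS averaged only 5.61, 6.25 and 2.82 CPM in Abce1, Rars2 and Ddx10 (scaled within the neutrophil libraries). Their falls there are bounded at only 6.09-, 6.79- and 3.06-fold, so a low starting level limits what these differences show. Nsmf (-6.90), Ccdc137 (-7.51), Lifr (-6.91) and Chst11 (-7.28) were the others of the 8 lowest. Saa3 rose by 10.28 in monocytes against 11.05 in neutrophils (difference 0.77 ± 1.05, adjusted p = 0.64) and Tnf by 5.80 against 5.52 (difference -0.28 ± 0.59, adjusted p = 0.78), differences that did not pass.

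**Figure D5:**
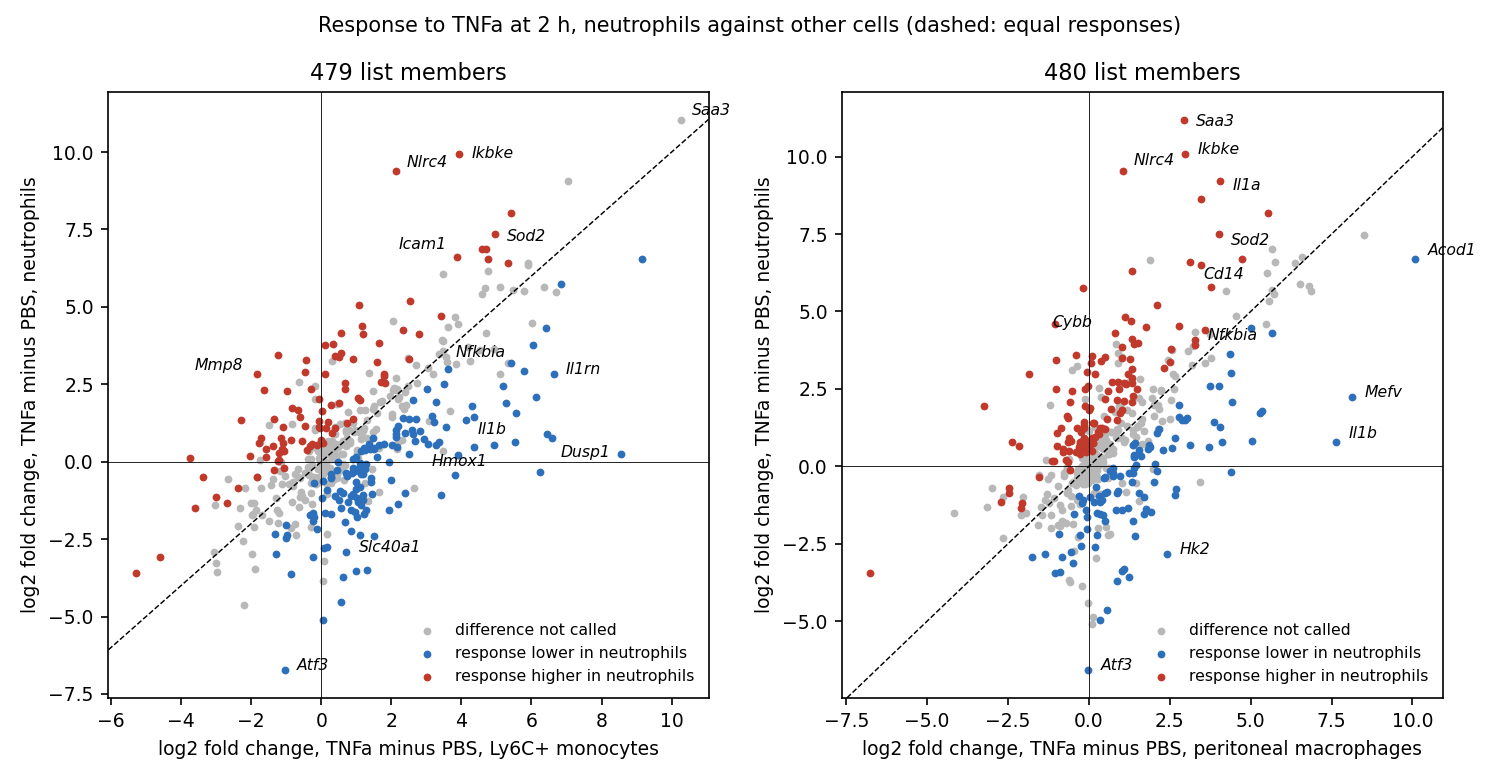
Log2 fold change (TNFa minus PBS) in neutrophils against that in Ly6C+ monocytes (left, 479 list members) and in peritoneal macrophages (right, 480), each point a gene with at least 20 CPM in 1 of the 4 groups and above 0 in all; red and blue mark differences called higher and lower in neutrophils, and the dashed line is equal response. Nlrc4, Ikbke and Sod2 lie above the line in both panels and Il1b below it in both, while Saa3 is near the line for monocytes and far above it for macrophages.

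Against peritoneal macrophages, 1554 of 13000 genes responded higher in neutrophils (12.0%) and 1581 lower (12.2%). The organ differs as well as the cell type here, and they cannot be told apart. Nlrc4 (8.48), Saa3 (8.27), Tbc1d4 (8.05), Filip1l (7.31), Ikbke (7.13), Mfsd7a (6.95), G0s2 and Dennd2a (6.71) responded most above macrophages. Saa3 was at 1892 CPM in macrophages with PBS and 14418 CPM with TNFa, so its level there stayed above that of neutrophils while its response was 2.93 against 11.20 (adjusted p = 1.6e-10). Of list members, Sod2 (3.49), Cybb (3.51), Cd14 (3.44), Tyk2 (3.46), Bhlhe40 (3.71), Il1a (5.15) and Cxcl2 (5.19) responded more in neutrophils, with adjusted p of at most 0.016. In the oxidative list 13 of 23 members responded more in neutrophils than in macrophages and 2 less. Il1b rose from 0.0725 to 18.02 CPM in macrophages, far below its level in neutrophils, yet by more on the log2 scale (difference -6.87 ± 0.49, adjusted p = 1.3e-08). Mefv (-5.92), Hk2 (-5.24), Tnfaip2 (-4.21) and Acod1 (-3.39) also responded less in neutrophils (adjusted p at most 0.00013), Hk2 with a fall in neutrophils (-2.82) and a rise in macrophages (2.42). Sele, which encodes E-selectin, fell in neutrophils from 16.8, 12.5, 16.2, 19.6 and 19.3 to 1.32, 1.75 and 0.307 CPM and reached 4.18 CPM in macrophages. Traf5 rose in macrophages from 7.58 to 42.7 CPM while it had no count in neutrophils given TNFa, and Msto1, Hgh1, Sgsh, Abce1, Rars2 and Ddx10, also at 0 there with TNFa, stood at 22.6, 26.5, 5.14, 199, 25.9 and 38.8 CPM in macrophages. Neutrophils given PBS averaged only 7.60, 7.96, 17.6, 5.61, 6.25 and 2.82 CPM in Msto1 to Ddx10 (scaled within the neutrophil libraries), so a low starting level limits these differences too. In Tnfaip3 and Icam1 the difference did not pass: Tnfaip3 responded by 5.56 in neutrophils and 5.73 in macrophages (difference -0.17 ± 0.30, adjusted p = 0.74) and Icam1 by 6.77 and 6.59 (difference 0.18 ± 0.50, adjusted p = 0.85).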

How the data were processed

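RNA of splenic neutrophils, Ly6C+ monocytes and peritoneal macrophages was measured in the libraries described above. The authors deposited 1 table of whole-number counts for 55011 genes in 209 libraries. Per the submitters' processing notes STAR 2.7.3a, featureCounts and mm10 were used; the annotation, the strand setting and the handling of reads with several matches were not given in the sources used here, and so near-identical copies and overlapping or antisense genes are uncertain. No batch is given in the labels of these libraries.

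From the deposited counts, edgeR 4.0.16 (R 4.3.3) gave the tests: TMM scaling factors, the default filter on low counts, a quasi-likelihood fit over the 14 splenic neutrophil libraries (PBS, TNFa, IL1b and IL6), and 16 libraries for each comparison of responses between cell types, with Benjamini-Hochberg adjustment over all genes tested and a threshold of 0.05. Errors of log2 fold changes are the SE, obtained as |log2 fold change| over the root of the F statistic. A gene with no count in 1 group is given as a bound against 3 counts per library, which covers counting error only. No 2 of the neutrophil PBS libraries, and no 2 of the neutrophil TNFa libraries, were alike within sampling noise. Their chi-square per degree of freedom was 12.1 to 35.5, and the other groups were not compared in this way. The analysis was also run on simulated counts with few genes changed, evenly up and down. That setting cannot test the scaling where as many genes are called as here.

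Genes were named by rule: among those called, with no overlap between libraries and at least 20 CPM in the higher group, the 15 largest rises and falls, the 6 smallest adjusted p in each direction and the 8 largest differences in each other contrast, passing over gene models with no symbol and a few genes that are not reported here, plus members of 30 lists (607 genes). For responses between cell types the higher group was the highest of all groups in the fit, which could be the other cell type. In lists of other than receptors, NF-kB and chemokines the 8 called members of smallest adjusted p could be named, and so could the marker genes (Ngp, Ltf and Camp among them). Bmf, Clec7a, Cxcr3, Il1b, Mcl1 and Socs3, and the list members singled out against monocytes or macrophages, were chosen after their values were seen. The members and lists were chosen with earlier results of these data known. The marker lists hold 116 genes. Positions are from GENCODE vM21 (GRCm38), and promoters from RefSeq (GRCm38.p6). The alternatives were DESeq2 1.42.0, RLE and upper quartile factors, other filters and the replicate number as a block. Leaving out each library and fitting only the PBS and TNFa libraries were others. Chosen after seeing the data were library totals alone, genes of at least 20 CPM on average, and leaving out PBS library 1 with IL6 library 2.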

Additional observations from a re-analysis of the deposited data

Results flagged for a closer look

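Of 223 genes given above for TNFa against PBS, 17 had 1 PBS library far from the other 4, measured as the gap to the nearest library over the range of the group (Dixon's test). The cut is set to be passed by chance in about 1 in 20 groups of normally distributed values. It was applied here to CPM, also of genes near 0. In some of the flagged genes, Ppbp and Cxcl3 among them, only 1 PBS library had any count, which is enough to be flagged. The flagged values of Cxcl16 and Cst7 were near 0 as well. The rate by chance in these data is therefore not known. PBS library 1 stood apart in 6 of them, with Bhlhe40 at 4.16 CPM, Ccnb1 at 9.71 CPM, Cdc20 at 26.7 CPM, Csf2rb at 502 CPM, Cst7 at 0.308 CPM and Rgs2 at 317 CPM. PBS library 2 stood apart in 2 of them, with Adora2b at 2.47 CPM and Ppbp at 0.177 CPM. PBS library 3 stood apart in 1 of them, with Traf1 at 7.22 CPM. PBS library 4 stood apart in 2 of them, with Cxcl16 at 0.192 CPM and Spry2 at 19.7 CPM. PBS library 5 stood apart in 6 of them, with Casp4 at 139 CPM, Cxcl3 at 0.459 CPM, Filip1l at 0.689 CPM, Mfsd7a at 3.44 CPM, Nlrc5 at 41.3 CPM and Otulin at 1.84 CPM.

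The log2 response to TNFa was higher in neutrophils than in Ly6C+ monocytes, by the test of the difference, in 15 genes whose difference is given above: Dennd2a (8.94), Filip1l (7.83), Mfsd7a (7.49), Nlrc4 (7.27), Pnpla1 (7.08), Tubb2a (6.73), Tesk2 (6.37), Abcd2 (6.20), Ikbke (6.02), Mmp8 (4.67), Irak3 (3.24), Tyk2 (3.00), Cybb (2.94), Icam1 (2.72) and Sod2 (2.39). It was lower in 9 such genes: Ccdc137 (-7.51), Chst11 (-7.28), Lifr (-6.91), Nsmf (-6.90), Dusp1 (-5.84), Il1b (-4.91), Hmox1 (-4.40), Socs3 (-3.89) and Il1rn (-3.78). It was also lower in Abce1, Ddx10, Rars2 and Traf5, which have no count in the TNFa neutrophils and are given with no size (adjusted p = 4.9e-05, 0.00037, 2.5e-05 and 5.2e-05 by edgeR).

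The log2 response to TNFa was higher in neutrophils than in peritoneal macrophages, by the test of the difference, in 14 genes whose difference is given above: Nlrc4 (8.48), Saa3 (8.27), Tbc1d4 (8.05), Filip1l (7.31), Ikbke (7.13), Mfsd7a (6.95), Dennd2a (6.71), Cxcl2 (5.19), Il1a (5.15), Bhlhe40 (3.71), Cybb (3.51), Sod2 (3.49), Tyk2 (3.46) and Cd14 (3.44). It was lower in 5 such genes: Il1b (-6.87), Mefv (-5.92), Hk2 (-5.24), Tnfaip2 (-4.21) and Acod1 (-3.39). Of genes with a group at or near 0, given with no size, the response was higher in G0s2 (adjusted p = 0.00085 by edgeR) and lower in Abce1 (4.1e-05), Ddx10 (9e-05), Hgh1 (4.2e-06), Msto1 (2e-06), Rars2 (5.6e-05), Sele (7.7e-07), Sgsh (0.0038) and Traf5 (7.7e-07).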

How the results depend on the processing

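The counts of calls depend on the scaling. On library totals alone, chosen after seeing the data, TNFa gave 968 genes higher and 4637 lower against PBS, Cxcr2 stood at -0.75, Mmp9 at -0.51, Tab2 at -0.71 and Ikbkb at -0.05, the reverse of the signs given above, and the calls of B2m, Csf2rb, Il1b, Isg15, Ltb4r1, Map3k7, Polr1a, Ppbp, Rel, Ripk1, Tap1, Tnfaip2 and Traf2 ended. On the same scale Ccna2, Ccnb1, Cdc20, Mcl1, Rbck1, Rnf31 and Sharpin became called lower. Over genes of at least 20 CPM on average, 2796 of 4597 tested were called, 1482 higher and 1314 lower. This filter, also chosen after seeing the data, tests fewer genes but calls a larger share of them. Without 1 library the log2 fold change of Ppbp ran from -1.35 (TNFa library 3) to 6.11 (PBS library 2). In the comparison of responses with monocytes, leaving out 1 library gave 1196 to 2013 genes lower, the smallest counts being 1206, 1214, 1196, 1223 and 1253 without monocyte PBS library 1, 2, 3, 4 or 5, and against macrophages no filter on low counts gave 1030 genes higher; the causes were not tested. Leaving out 1 library left 3558 to 4046 genes called against PBS, 1857 to 2237 against IL1b, 2900 to 3183 against IL6, 2606 to 3166 in the comparison with monocytes and 2529 to 3295 in that with macrophages.

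Libraries share replicate numbers across groups. The deviations of same-numbered TNFa and other neutrophil libraries correlated weakly, at -0.008 to 0.021. Each TNFa library correlated best with its own number among PBS libraries and among IL6 libraries, not among IL1b libraries. With the replicate number as a block, 3581 genes were called against PBS, 2388 against IL1b, 3576 against IL6, 2114 in the comparison with monocytes (1302 lower) and 2283 in that with macrophages, and Ppbp, Ripk1, Tab1 and Traf2 lost their calls while Birc2, Ccna2 and Ccnb1 gained one. Of 224 genes given above for TNFa against PBS, 218 kept direction and side of the threshold with DESeq2, 224 with RLE factors, 221 with upper quartile factors, 217 with no filter, 216 of the 218 still tested with a stricter filter and 217 with the block. Depth limits the genes under about 3 counts, and 3 TNFa libraries limit what the tests can call.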
